A study of Drosophila melanogaster with 5 samples.

Results

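The regions described here are 1508 stretches of open chromatin inside introns of Drosophila melanogaster genes. They were called in nuclei sorted as those of dopamine neurons and not in nuclei sorted as those of GABA neurons. Below, the names of the 2 neuron types stand for these sorted nuclei, which need not all come from neurons. They were chosen by measured values. A row of the table of accessible regions became a member when its annotation was intronic and it overlapped by at least 1 bp a peak in both dopamine libraries and no peak in any of the 3 GABA libraries. The table held 80590 regions, 15928 of them intronic, so the members made up 9.47% of the intronic regions. Over the regions of every annotation the same rule took 6784 regions, or 8.42%, so introns held such regions at a share close to that of the table as a whole. The opposite class, with a peak in all 3 GABA libraries and in neither dopamine library, held 3505 intronic regions (22%), and 2256 intronic regions (14.2%) had a peak in all 5 libraries.

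The study sorted GFP-positive nuclei from heads of adult flies and profiled them with ATAC-seq, in which the transposase Tn5 inserts sequencing adapters into open chromatin. Both groups carried a UAS transgene for nuclear GFP. In the dopamine group (libraries TH1 and TH2) it was driven by TH-Gal4, which uses sequence of the tyrosine hydroxylase gene, and in the GABA group (GABA1, GABA2 and GABA3) by vGAT-Gal4, which uses that of the vesicular GABA transporter. Flies were kept at 25 °C, with no other treatment given for these samples, and each library pooled the heads of many flies, whose sex and exact age the sources used here do not give. A Gal4 line labels the cells in which its driver is active, so each library is the set of nuclei bright enough to be sorted. Such a set is not 1 neuron subtype and need not hold neurons alone. In such bulk nuclei, open chromatin in few nuclei and weaker opening in many cannot be told apart.

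Introns of fly genes hold many enhancers, short DNA elements at which transcription factors bind and from which they act on a promoter, often that of the gene around them. Such elements are open mainly in the cell types that use them. Dopamine neurons make their transmitter from tyrosine with tyrosine hydroxylase (ple) and Dopa decarboxylase (Ddc), and in insects the same pathway also supplies the epidermis with dopamine to harden and colour the cuticle.

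The peak lists differed in ways that touch the rule. They held 69464 (TH1), 69940 (TH2), 84055 (GABA1), 81638 (GABA2) and 107219 (GABA3) peaks. The lowest fold enrichment listed was 1.80 and 1.93 in the dopamine lists and 1.25 to 1.28 in the GABA lists, and the highest −log10 q was 58.3 and 63.2 against 413 to 616. The GABA lists thus reached weaker peaks. A peak overlapped 31.0% and 35.1% of the intronic regions in the dopamine lists and 54.2% to 59.4% in the GABA lists. The peak lists themselves hold no read counts, and the study's sequencing statistics are not used here, so no counting error is given for a single call.

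The labelled cell types were compared with their markers over regions of any annotation, each assigned to the nearest start site. Of all regions, 8.42% were called only in dopamine neurons, and the dopamine counts are to be read against that share. The share called only in GABA neurons is given here for intronic regions alone (22%). The GABA counts below thus have no share over all regions beside them and are not to be read against 8.42%. Of 23 regions nearest to 4 dopaminergic markers, 5 were called only in dopamine neurons and 0 only in GABA neurons, with 4 of the 5 at ple and 1 at Ddc. Vmat (the vesicular monoamine transporter) and DAT (the dopamine transporter) had 0. These are counts of calls alone. A region called in both neuron types, or in only some libraries of 1 type, is not counted and can still differ in signal. Of 16 regions nearest to 3 GABAergic markers, 3 were called only in GABA neurons, all at Gad1 (glutamic acid decarboxylase), and 0 only in dopamine neurons, while VGAT itself had 0 of 10. Markers of other cell types were called in dopamine neurons only at 17 of 42 regions for 7 epidermal genes. For glial, photoreceptor and muscle genes the counts were 3 of 54, 2 of 58 and 1 of 61, all below 8.42%. In GABA neurons only, 0 of the epidermal, 6 of the glial, 19 of the photoreceptor and 11 of the muscle regions were called, along with 2 of 12 for cholinergic and 3 of 6 for glutamatergic genes. The 17 epidermal regions lay at grh (13 of its 26) and e (4 of 9). For kkv, t and mwh the counts were 0 of 1, 0 of 1 and 0 of 5, and y and sha had no region. Markers of hemocytes and fat body had 0 of 21 and 0 of 3 regions called only in dopamine neurons. The share called only in dopamine neurons was thus 40.5% for the epidermal and 21.7% for the dopaminergic markers, and the part of epidermal nuclei in the results below was not tested.

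None of the members lay in an intron of a dopamine synthesis or transport gene, which had 1 intronic region among them. The 12 members with the highest peaks, taken as those whose lower percentile in the TH1 and TH2 lists was highest, with at most 1 per gene, lay in other kinds of genes. Several of those genes encode transcription factors and chromatin proteins. The first was an intron of ps (pasilla, a splicing regulator), a region of 1005 bp at chr3R:9421907-9422911 (BDGP6, intron 2 of 7). Its peak had a fold enrichment of 6.24 in TH1 and 8.31 in TH2, and the nearest peaks of GABA1, GABA2 and GABA3 lay 599, 976 and 609 bp away. The second lay in crc (cryptocephal, the fly ATF4 factor of the stress response) at chr2L:21316678-21317016, with 6.16 in TH1 and 8.31 in TH2. No GABA peak lay within 1364 bp of it.

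The third region lay in grh (grainy head, a transcription factor of epidermis and other epithelia that also acts in neural stem cells) at chr2R:17832093-17832794, in intron 8 of 13. Its fold enrichment was 6.01 in TH1 and 8.53 in TH2, the latter the highest of any member in that library. Its nearest GABA peak was 4087 bp away, in GABA3. The region in tara (taranis, a nuclear cofactor known for a role in sleep) at chr3R:16253780-16254522 reached 6.84 in TH1 and 7.97 in TH2. The region in Eip93F, an ecdysone-induced transcription factor, at chr3R:21957787-21958513 reached 6.24 and 7.62, and its mean normalised count over the 5 libraries, 1522, was the highest of all members. Eip75B, a nuclear receptor induced by ecdysone, held a region at chr3L:17958670-17959156 with 5.86 and 7.40.

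The other 6 lay in genes of varied function. In ush (u-shaped, a zinc-finger partner of GATA factors) the region at chr2L:484205-485077 had a fold enrichment of 5.56 in TH1 and 7.97 in TH2, and the nearest start site was that of another gene, cbt. In dpp, a BMP-type ligand, the region at chr2L:2433701-2434090 had 6.91 and 7.28, and 6.91 was the highest value of any member in TH1. In trx (trithorax, a histone H3 methyltransferase) the region at chr3R:14280599-14281049 had 6.31 and 7.28. In Lk6, a kinase that phosphorylates the translation factor eIF4E, the region at chr3R:11756736-11757167 had 5.41 and 8.31. The regions in sas, a cell-surface protein gene (chr3R:7167897-7168349), and wdp, a leucine-rich repeat protein gene (chr2R:22305758-22306111), both had 5.33 in TH1 and reached 7.17 and 7.85 in TH2. All 12 had a higher fold enrichment in TH2 than in TH1, but so did the TH2 list as a whole (median 3.19 against 2.63). By percentile within its list the order was mixed. The region in dpp stood lower in TH2 (97.2) than in TH1 (99.8), and that in Lk6 higher (99.2 against 96.9).

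Over all 1508 members the fold enrichment in TH1 ran from 1.80 to 6.91 with a median of 2.86, and in TH2 from 1.93 to 8.53 with a median of 3.41. These values belong to the measure that chose the members and are given as a description. The 2 libraries ordered the members in much the same way (Spearman correlation 0.79 and Pearson correlation 0.85 over 1508 regions, which share both libraries). The summits of the TH1 and TH2 peaks lay a median of 14 bp apart and within 50 bp of each other at 1179 members (78.2%). The median member stood at the 58.6th percentile of all TH1 peaks and the 56.5th of all TH2 peaks. Several listed peaks can share an interval, and the distinct intervals numbered 40255 in TH1 and 39261 in TH2. A member took the highest peak over it, which can raise its percentile among all listed peaks. Few members were among the highest peaks. Only 40 (2.65%) in TH1 and 36 (2.39%) in TH2 were in the top 5% of the list, against 8.16% and 7.81% of the 2793 intronic regions that both dopamine lists shared with at least 1 GABA list.

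**Figure D1:**
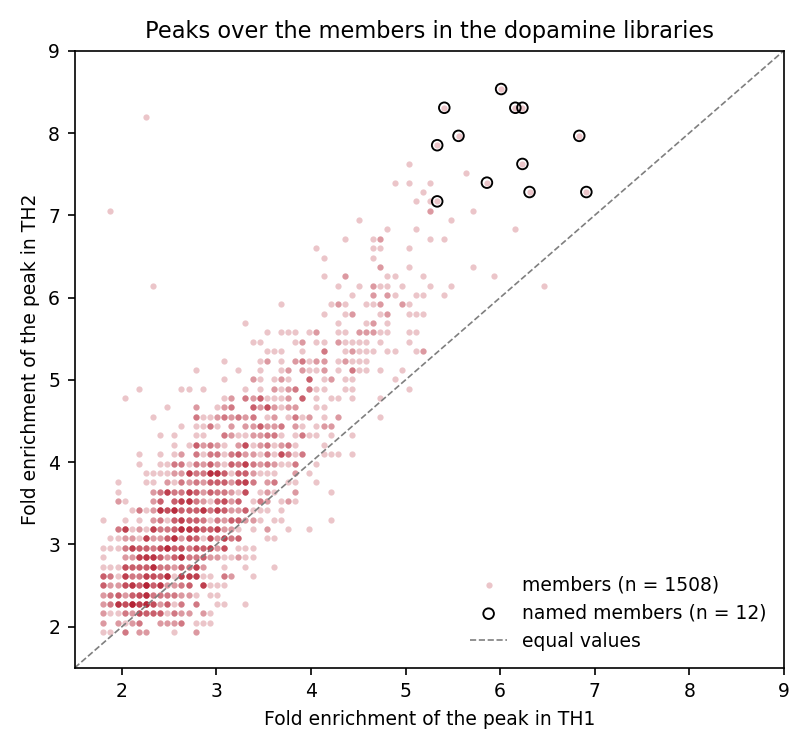
Fold enrichment of the MACS2 peak over each of the 1508 members in library TH1 (x axis) and TH2 (y axis). Each red point is a member, black circles mark the 12 named members, and the dashed line marks equal values; most points lie above the line, and the named members stand at 5.33 or more in TH1 and 7.17 or more in TH2.

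GABA peaks kept most intronic regions with a peak in both dopamine lists out of the members. Of the 4301 intronic regions with a peak in both dopamine lists, 1508 (35.1%) had none in a GABA list, 279 (6.49%) had one in a single GABA list, 258 in 2 and 2256 (52.5%) in all 3. The regions therefore fell largely at the 2 ends. A single GABA library kept out 80 (GABA1), 82 (GABA2) or 117 (GABA3) regions. On the dopamine side, 171 of the 1679 regions called in TH1 and in no GABA list were missing from TH2 (10.2%), and 276 of the 1784 called in TH2 were missing from TH1 (15.5%).

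Calls were also read in the library that a choice had left out. Regions chosen on TH1 and the 3 GABA lists had a TH2 peak in 89.8% of cases, compared with 87.2% of all 4934 intronic regions with a TH1 peak. Regions chosen on TH2 had a TH1 peak in 84.5%, compared with 76.9%. Regions chosen on both dopamine lists and 2 GABA lists had a peak in the third GABA library in 5.04% (GABA1), 5.16% (GABA2) and 7.20% (GABA3) of cases. The same share among all intronic regions without a peak in the other 2 GABA libraries was 8.18%, 11.4% and 19.8%. These shares come from the same calls as the counts above, so they describe the members and give no separate support. They were not tested.

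The nearest GABA peak lay a median of 709.5 bp from a member, with a range of 36 to 16235 bp. For 80 members (5.31%) it was within 100 bp, and for 580 (38.5%) it was more than 1000 bp away. With the added demand of no GABA peak within 500 bp, 931 members were left. The rule has 2 edges. Just inside the dopamine edge were regions in twin (9 bp of overlap with the TH1 peak), CG6959 (12 bp with the TH2 peak) and Eip75B (14 bp with the TH2 peak). Nearest to a GABA peak were members in axo (36 bp from GABA1), NK7.1 (46 bp from GABA3) and eas (46 bp from GABA3). Just outside were regions in tai (20 bp of overlap with a GABA3 peak), CG33158 (28 bp with GABA3) and raw (31 bp with GABA2), whose fold enrichment of 2.03 to 2.86 in TH1 and 2.62 to 3.30 in TH2 lay within the range of the members.

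**Figure D2:**
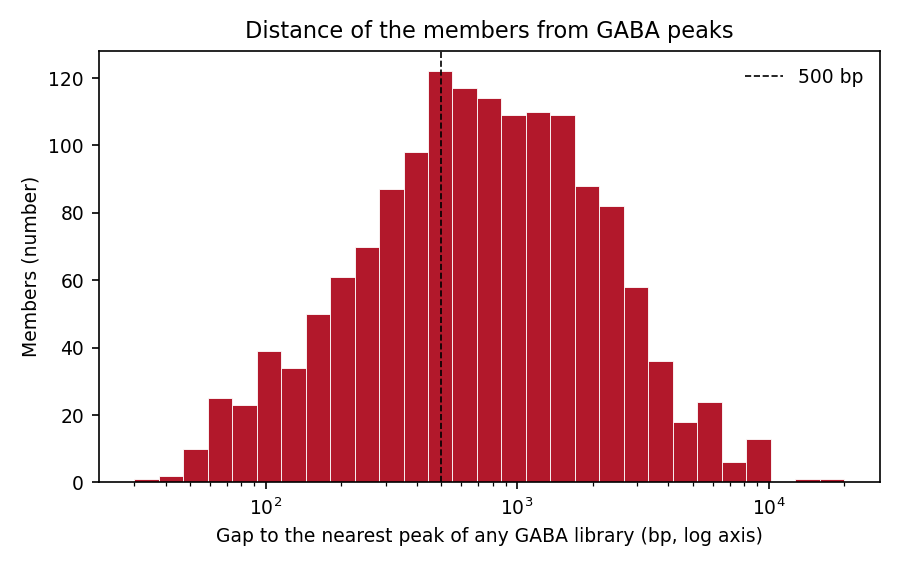
Distance in bp (log axis) from each of the 1508 members to the nearest peak of any GABA library, as a histogram of the number of members. The values run from 36 to 16235 bp, and the dashed line marks 500 bp, beyond which 931 members lie.

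The members lay in 647 host genes, the genes whose introns hold them, which was 38.6% of the 1678 genes with any intronic region. A single member was found in 292 of these genes and 2 or more in 355. The 66 genes with 5 or more members held 451 (29.9%) of them. Of the host genes with members, 227 (35.1%) also held an intronic region called only in GABA neurons, against 45.8% of all genes with intronic regions. Host genes with no region called only in GABA neurons held 890 of the members (59.0%). The median length of the genes with members was 22280 bp, against 21982.5 bp for all genes with intronic regions. A promoter region called only in dopamine neurons was found for 345 of the 623 genes with members that had any promoter region (55.4%), and for 35.9% of all 1596 genes with both intronic and promoter regions.

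Host genes were ranked by number of members, which favours genes with many intronic regions. Each count is to be read against the 9.47% of all intronic regions that were members. The gene with most members was tara, with 14 of its 32 intronic regions. Its members ran from 1.80 to 6.84 in TH1 and from 2.16 to 7.97 in TH2, 10 further regions were called in all 5 libraries and 0 only in GABA neurons. CG46385 followed with 13 of 34. Next came shot (short stop, which links actin to microtubules) with 12 of 22 and cv-c (crossveinless c) with 12 of 32. The members of cv-c were packed together: 9 followed each other in the table, with no other region between them, in the 7385 bp from chr3R:14471630 to 14479014.

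Transcriptional regulators followed. Eip93F had 12 of 47, ush 10 of 28, Glut4EF (a transcription factor related to the glucose transporter enhancer factor of mammals) 10 of 85, mamo (a zinc-finger factor) 9 of 46 and mld (molting defective, a zinc-finger protein needed for ecdysone synthesis) 8 of 21. Signalling proteins were represented by cact (cactus, the IκB protein of the Toll pathway) with 8 of 14, PRAS40 (an inhibitor of the growth kinase TOR) with 8 of 15 and the protein kinase gene Hipk with 8 of 21. The RNA-binding protein gene cpo had 8 of 58 and heca 9 of 48. CG8312 (10 of 14), CG4374 (8 of 13), CG33298 (8 of 17) and osp (8 of 38) complete the group with kirre and sona.

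Among these genes kirre had the most regions called only in GABA neurons and sona had no region of another kind. In kirre, which encodes an immunoglobulin-family adhesion protein and is 394149 bp long, 8 of 55 intronic regions were members and 18 were called only in GABA neurons. In sona, which encodes a secreted metalloprotease, all 7 intronic regions were members, with 2.93 to 4.88 in TH1 and 3.41 to 5.35 in TH2. Another 15 genes with at least 3 intronic regions had no other kind, among them CG15544 with 5, wdp with 4, and Lk6, kay (the fly Fos factor) and dac (dachshund, a nuclear factor of eye, leg and brain development) with 3 each. Together the 20 genes with most members held 190 of the 1508 (12.6%). Of their intronic regions 29.4% were members, a share raised by the choice of genes itself. It ran from 11.8% in Glut4EF, 13.8% in cpo and 14.5% in kirre to 100% in sona, against 9.47% of all intronic regions.

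**Figure D3:**
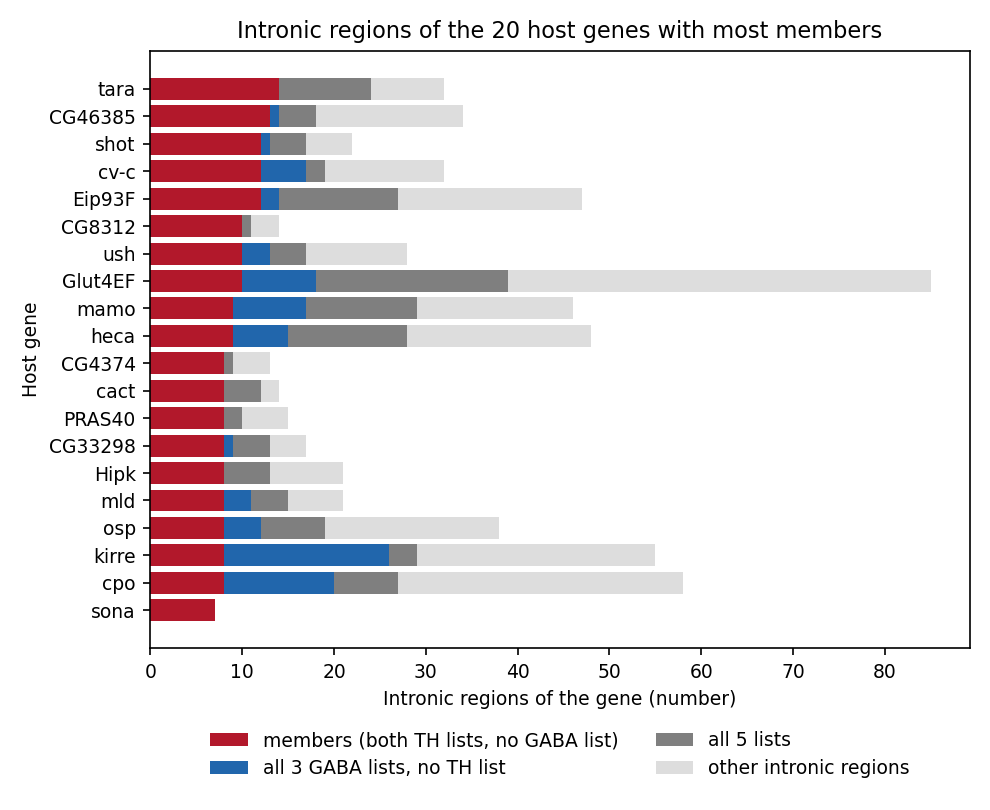
Number of intronic regions (x axis) in each of the 20 host genes with most members (y axis), split into members, regions with a peak in all 3 GABA lists and no dopamine list, regions in all 5 lists, and the rest. The members range from 14 in tara to 7 in sona, where they are the only kind, while kirre has 8 members and 18 regions called only in GABA neurons.

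Many members had another member close by. The nearest other member was a median of 942 bp away, and 762 members (50.5%) had one within 1000 bp. Of the intronic regions called only in GABA neurons, 47.0% had another of their kind within that distance. Within 5000 bp the order was the other way, with 68.4% of members and 74.9% of the GABA regions. Read along the table, 676 members (44.8%) stood alone, and 434 stood in 118 unbroken runs of 3 or more. After cv-c the longest were runs of 7 in CG8312 (6344 bp) and in tou (3884 bp). Counts of members are therefore not counts of independent sites.

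Members lay close to start sites and early in their genes. The distance from a member to the nearest start site had a median of 4278.5 bp and ranged from 2001 to 46536 bp, against a median of 6576 bp over all intronic regions and 8480 bp over those called only in GABA neurons. No intronic region of the table lay within 2000 bp of a start site, because the annotation called such regions promoters. A first intron held 695 members (46.1%, 95% Wilson interval 43.6% to 48.6%, counting error only), against 33.2% of all intronic regions and 27.1% of those called only in GABA neurons. The interval takes members as independent, which they are not, so it may be too narrow. The start site nearest to a member was that of its own host gene in 69.4% of cases and in 53.7% over all intronic regions.

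The same measures were compared over libraries. For each library the intronic regions with a peak in it and in no library of the other neuron type were taken, 1679 in TH1, 1784 in TH2, 4834 in GABA1, 5198 in GABA2 and 5583 in GABA3. Their median distance to the start site was 4265 bp in TH1 and 4259.5 bp in TH2, and 8278, 8272.5 and 8358 bp in GABA1, GABA2 and GABA3. The dopamine mean was 4262 ± 3.89 bp (SD, n = 2) and the GABA mean 8303 ± 47.9 bp (SD, n = 3), with no overlap between the groups. First introns held 46.1% in both TH1 and TH2, and 27.6%, 27.1% and 27.8% in GABA1, GABA2 and GABA3, a difference of 18.6 percentage points. For both measures the exact permutation test over libraries gave p = 0.2 (two-sided, adjusted p = 0.3 over 3 measures), the smallest p that 2 against 3 libraries can give. Each set was defined with the neuron types, since it bars peaks of the other type. The TH1 and TH2 sets share the 1508 members, and the 3 GABA sets share 3505 regions. The small spread within a group is therefore largely that of shared regions. The spread and the p-values do not measure variation between independent sets of regions, so no conclusion is drawn from them.

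The median length of the regions was 151 bp in TH1 and in TH2, and 151, 146 and 145 bp in the GABA libraries. These groups overlapped (exact permutation p = 0.6, adjusted p = 0.6). Host genes also differed in size between the classes. Members lay in genes with a median length of 28480 bp (counted once per region), compared with 62395 bp for regions called only in GABA neurons. Among regions in genes shorter than 28480 bp, 53.8% of 738 members and 49.6% of 3243 other intronic regions were in first introns, and the median distances were 3601 and 4141 bp. In genes of at least that length the shares were 38.7% of 744 members and 26.7% of 11013 other intronic regions, and the median distances were 5330.5 and 8376 bp. Members had the higher share and the shorter distance among both shorter and longer genes. The split was made at the members' own median after seeing the data, and the part of gene length in these values was not tested.

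**Figure D4:**
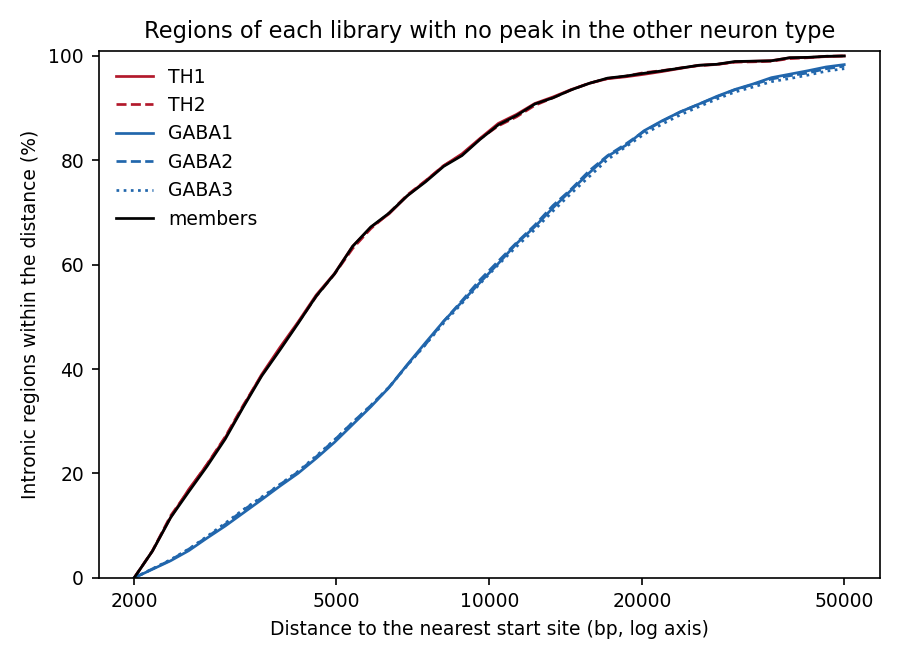
Share of intronic regions (y axis, %) within a given distance of the nearest start site (x axis, bp, log scale), for the regions of each library that had no peak in the other neuron type and for the 1508 members. The TH1, TH2 and member curves lie on top of each other with medians of 4265, 4259.5 and 4278.5 bp, and those of the 3 GABA libraries with medians of 8272.5 to 8358 bp.

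In size the members were close to the other intronic regions. They were 74 to 1391 bp long, with a median of 157 bp against 151 bp over all intronic regions. Their mean normalised count over the 5 libraries ranged from 19.8 to 1522 with a median of 103, against 77.2 over all intronic regions and 271 over those called in all 5 libraries. The chromosome arms held similar shares, 8.59% of the intronic regions on 3L, 9.27% on 2R, 9.36% on X and 9.98% on 2L, and 427 of 4260 on 3R.

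Gene lists were then read by host gene, each as a count of its intronic regions, against the 9.47% of all intronic regions that were members and the 22% called only in GABA neurons. Most lists of neuronal genes held few members. Of 654 intronic regions in 44 genes of the Dpr, DIP, Beat and Side families, cell-surface proteins that pair neurons with their partners, 0 were members and 246 (37.6%) were called only in GABA neurons. By library, 0 and 1 of the regions of TH1 and TH2 without a GABA peak lay in these genes, and 310, 363 and 416 of those of GABA1, GABA2 and GABA3 without a dopamine peak, which is 6.41% to 7.45% of the latter. In genes for transmitter receptors 4 of 329 regions were members (1.22%), 3 in the octopamine receptor gene Octbeta2R and 1 in the muscarinic receptor gene mAChR-B. In genes for voltage-gated, potassium and TRP channels 3 of 246 were (1.22%), 1 each in Ih, Elk and Shal, with a fold enrichment of no more than 2.70 in TH1 and 2.62 in TH2.

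Further lists of neuronal genes were read in the same way. Synaptic vesicle and active zone genes had 3 members among 129 regions, 2 of them in Syn (synapsin). Neuropeptide receptor genes had 4 among 131, with 2 in InR (the insulin receptor) and 1 each in Dh44-R2 and CrzR. The pan-neuronal list had 0 of 59, dopamine receptor genes 0 of 42, GABA synthesis and transport genes 0 of 7 and genes of other transmitter identities 0 of 14. Regions called only in GABA neurons made up 40.5% of the dopamine receptor regions (17 of 42). Axon guidance and adhesion genes had 24 members among 957 regions (2.51%), and 15 of these were in 2 genes, kirre with 8 and Fas3 with 7. Neuropeptide genes had a share above that of all intronic regions, with 4 among 23 (17.4%), all in the first intron of ITP (ion transport peptide), where the strongest reached 5.11 in TH1 and 5.80 in TH2.

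Genes of epidermis and cuticle tanning held a larger share. Of 26 intronic regions in 6 genes, 12 (46.2%) were members and 0 were called only in GABA neurons. They lay in grh (7), e (ebony, which joins β-alanine to dopamine, 3), kkv (a chitin synthase gene, 1) and ovo (1). Since grh and e also carried the epidermal marker count above, the list is not a separate result. Of its 69 regions of any annotation, 22 (31.9%) were called only in dopamine neurons and 3 (4.35%) only in GABA neurons. By library, 12 intronic regions of TH1 and 14 of TH2 without a GABA peak were in genes of this list, and 0, 0 and 1 in the GABA libraries. The 3 members in e lay within intron 1 of 6, between 3107 and 3890 bp from the start site, with a fold enrichment of 2.03 to 3.46 in TH1 and 2.16 to 4.21 in TH2. Glial genes had 3 members among 6 regions, 1 each in nrv2 (4.73 in TH1 and 5.92 in TH2), drpr (4.81 and 6.03) and Gs2 (3.76 and 4.21). This list of 9 genes is not the set of 6 glial markers above. Of its 79 regions of any annotation, 9 (11.4%) were called only in dopamine neurons, against 8.42% of all regions. Another 6 (7.59%) were called only in GABA neurons. The glial share thus stood above or below that of all regions depending on the genes chosen. Photoreceptor genes had 0 of 25, hemocyte genes 0 of 17, muscle genes 1 of 33 (in Mef2), and fat body genes had no intronic region.

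Lists of transcription factors, clock genes, cAMP signalling and long noncoding RNAs had shares of 8.80% to 14.2%. Homeobox genes had 29 members among 204 regions (14.2%) in 14 of 31 genes, the most in hth (homothorax, 5), NK7.1 (4) and Dll (Distal-less, 3). Regions called only in GABA neurons made up 16.7% of the homeobox regions. Among them were 5 of the 40 intronic regions of hth, 4 of 27 in NK7.1 and 0 of 10 in Dll. Nuclear receptor genes had 19 among 179 (10.6%) in 9 of 12 genes, led by Eip75B (6) and EcR (the ecdysone receptor, 4), and 6.70% were called only in GABA neurons. Genes of neuronal birth-order identity had 23 among 230, 21 of them in Eip93F and mamo. Circadian clock genes had 5 among 51, in Pdp1 (3), vri and Clk (1 each), and the region in vri reached 5.03 in TH1 and 5.92 in TH2. Genes of cAMP signalling had 17 among 127 (13.4%) in 10 of 13 genes, among them the adenylyl cyclase gene rut with 1. Long noncoding RNA genes had 22 among 250 (8.80%).

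A further 6 lists were drawn up after the host genes had been seen, so their counts describe the members and support nothing. They cover pathways that act in many tissues. Insulin and TOR signalling genes had 25 members among 64 regions (39.1%) and 0 called only in GABA neurons, with 8 in PRAS40, 7 in foxo (the transcription factor downstream of insulin), 3 each in REPTOR and Lk6, and 2 each in S6k and InR. JNK signalling genes had 13 among 32 (40.6%), 7 of them in puc (puckered, the phosphatase that switches the JNK kinase off). EGFR and Ets signalling genes had 13 among 45 (28.9%), 7 in aop (anterior open, an Ets repressor). Dpp signalling genes had 16 among 66 (24.2%), 6 each in the receptor gene tkv and in shn, and 2 each in dpp and Dad. Genes of cell junctions and polarity had 38 among 172 (22.1%), led by shot, Fas3 and pyd, and Toll signalling genes 9 among 46 (19.6%), 8 of them in cact. In the Toll list 15 of 46 (32.6%) were called only in GABA neurons, and in the other 4 of these lists, insulin and TOR aside, 0 (JNK), 1 (EGFR and Ets), 2 (Dpp) and 19 (cell junctions and polarity) were.

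**Figure D5:**
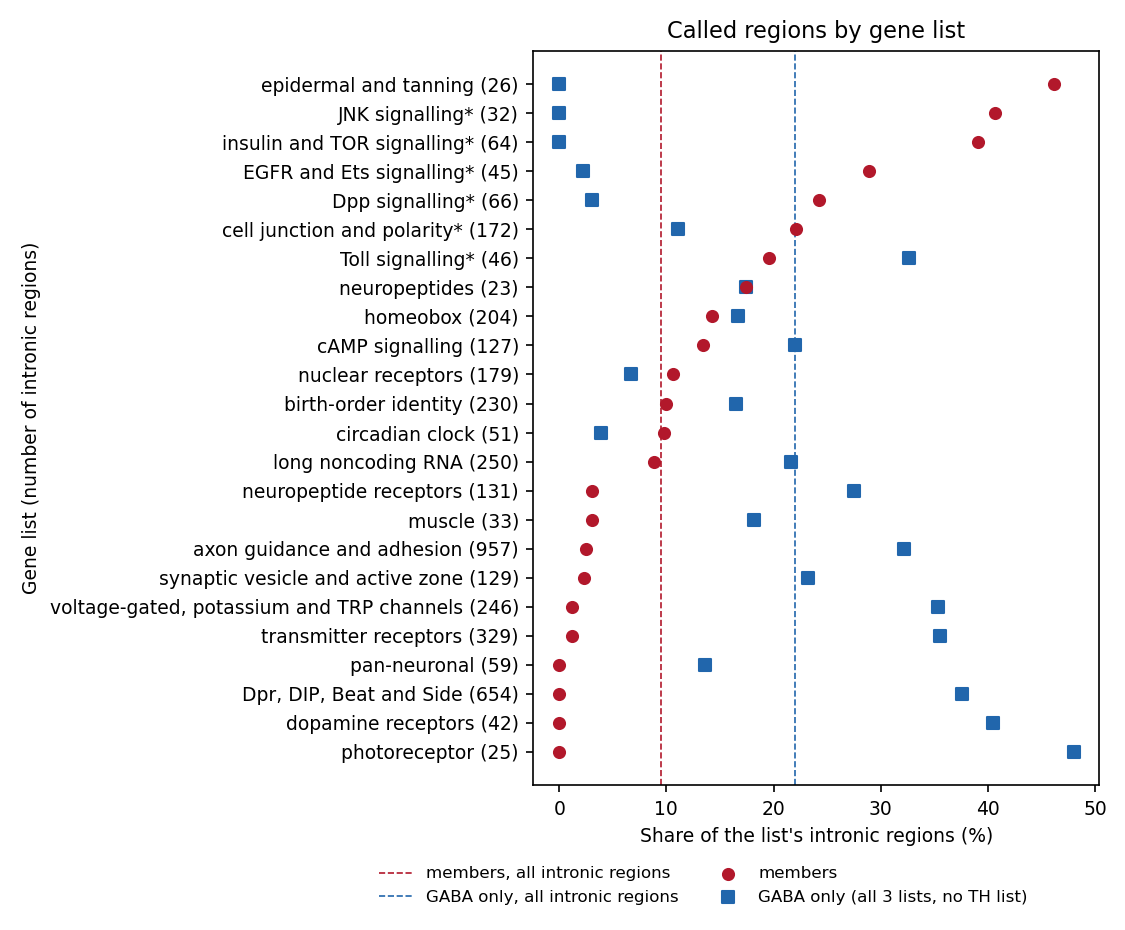
Share (x axis, %) of each list's intronic regions that were members (red circles) or were called only in GABA neurons (blue squares), for lists with at least 20 intronic regions (number in brackets, y axis). Dashed lines give the same shares over all intronic regions, 9.47% and 22%, and an asterisk marks a list drawn up after the host genes were seen; epidermal and tanning genes stand at 46.2% and 0%, Dpr, DIP, Beat and Side genes at 0% and 37.6%.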

How the data were processed

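ATAC-seq was performed on sorted nuclei from 2 dopamine and 3 GABA libraries. The authors trimmed reads, aligned them to release 6.26 of the Drosophila genome (BDGP6) with Bowtie2, removed duplicates with Picard and called peaks for each library with MACS2; its settings are not given in the sources used here. The deposited peak lists give a fold enrichment (a ratio over local background) and a −log10 q per peak. The authors deposited a table of regions annotated with ChIPseeker, whose mean normalised count (a pooled signal over the 5 libraries, from DESeq2) was used as the authors' value. Its fold changes and p-values of dopamine against GABA were not used.

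Overlaps were computed with Python 3.11.15, numpy 2.4.6 and pandas 2.3.3, and exact permutation tests with scipy 1.17.1. The overlap functions were checked on simulated intervals, and the permutation test on a set of fixed values with a known answer. A region's value is that of its best overlapping peak, and its percentile is the share of the list's peaks below it, with ties split evenly. The host gene is the one in the intron annotation, which names 1 gene where several overlap. Symbols came from RefSeq (Release 6) through the table's gene identifiers for 98.8% of intronic regions; 26 members had no named host. Regions were named by rule: the 20 genes with most members, the 12 highest members, genes of the lists, and regions at the edges of the rule. The members and lists were chosen with earlier results of these data known. No genome sequence was used here, so no sequence is shown. The labels do not say whether libraries came from separate sorts, so their spread may be technical. One gene of the lists is not reported here.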

Additional observations from a re-analysis of the deposited data

How the results depend on the processing

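Counts were held to a limit of 1.5 times and shares to their 95% binomial interval, so 1 setting can leave a count within its limit and move the share. These intervals take regions as independent and may be too narrow. Taking distinct intervals, the chromosome arms only or regions over 500 bp from a start site removed no region, so these settings could change nothing. The number of members fell to 931 when GABA peaks within 500 bp were barred, which also gave a share of 5.85% of the intronic regions and a median distance to the start site of 4239 bp. Peaks covering at least 50% of a region gave 11.2% and 4295.5 bp, peaks with −log10 q of at least 5 gave 7.20% and 4299 bp, and equal numbers of peaks (69464 per list) 10.4% and 4317 bp. Allowing a peak in 1 GABA list, an alternative chosen after seeing the data, gave 11.2% and 4332 bp. Host genes under the median length, also chosen after seeing the data, gave 53.8% of members in first introns and 3601 bp, and those of at least that length 38.7% and 5330.5 bp. Without each library in turn the members made up 9.97% to 11.2% and their median distance was 4259.5 to 4297.5 bp. Leaving out a library or allowing a peak in 1 GABA list can only add regions, so no member could be lost there. Of the 1508 members, 993 were kept with −log10 q of at least 5 and 1506 with equal numbers of peaks. The cause of these shifts was not tested.

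The difference in median length (dopamine minus GABA, 3.67 bp) changed sign without a dopamine library, ranging from -5 to 7.5 bp without each library, and was -8.08 bp with −log10 q of at least 5. With a replicate block (TH1 with GABA1, TH2 with GABA2) the differences were 2.50 bp in length, -4013 bp in distance and 18.7 points in first introns. The labels do not say that equal numbers mark paired samples. GC content and motif shares were not run, since no genome sequence was used here. Read depth was not used here, and 2 against 3 libraries cannot reach an exact p below 0.2.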
